A study of Mus musculus with 18 samples.

Results

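The chromatin regulators described here were 46 genes, chosen by name, that encode subunits of the BAF and NuRD nucleosome remodelling complexes, of Polycomb repressive complexes 1 and 2 (PRC1 and PRC2), and the enzymes that write and oxidise DNA methylation. All 46 were among the 24072 genes of the table, and all 46 were among the 12839 genes that passed the filter on low values and were tested. They comprised 15 BAF subunits, the ISWI ATPase Smarca5, 13 NuRD subunits, 5 PRC2 and 6 PRC1 subunits, 3 DNA methyltransferases and 3 TET enzymes. They were measured in cultured cells labelled pro-B, from the fetal liver of C57BL6/J mice, of 3 genotypes: Ebf1 knockout (Ebf1-/-, here Ebf1-KO), Pax5 knockout (Pax5-KO) and wild type (WT). EBF1 and PAX5 are transcription factors that specify and maintain the B lineage. All 3 genotypes were expanded on OP9 stromal cells with interleukin-7 and the ligands of KIT and FLT3, each at 10 ng/ml, so each culture also held a host stroma. The study sequenced RNA and accessible chromatin (ATAC, which reads where a transposase can insert into DNA), each in 3 libraries per genotype. The age of the fetuses, the kind of deletion and whether libraries of a genotype came from separate animals or cultures are not given in the sources that were used, so p-values measure only the spread between these libraries.

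BAF is a SWI/SNF-type remodeller: an ATPase subunit, Smarca4 or its paralog Smarca2, moves or evicts nucleosomes, and alternative subunits give the complex its variants. NuRD joins a CHD remodelling ATPase to histone deacetylases, and is best known for closing or fine-tuning regulatory DNA. PRC2 methylates histone H3 through Ezh2 or Ezh1, PRC1 ubiquitinates histone H2A through Rnf2 or Ring1, and the DNA methyltransferases and TET enzymes add and oxidise methyl groups on cytosine. In B progenitors, Smarca4 is known to act with EBF1 at early B cell genes, and Ezh2 is known for its role in rearrangement of the heavy chain locus.

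RNA libraries held 27.3 to 89.1 M mapped reads, of which 47.0 to 71.4% fell in exons, and ATAC libraries held 15.3 to 38.6 M tags. RNA levels below are reads over a gene's exons per 10 M mapped reads, rescaled between libraries by TMM factors (trimmed mean of M values), and are called scaled reads. They grow with transcript length, so levels of different genes are compared only per kb. Log2 fold changes are of the value + 1, which understates changes of low genes, and a gene or peak was called at a Benjamini-Hochberg adjusted p under 0.05 over all genes or peaks tested (limma, two-sided). Of the targeted genes, Pax5 stood at 7.98, 14.5 and 13.4 scaled reads in the Ebf1-KO libraries, 105, 96.1 and 109 in the Pax5-KO libraries and 1693, 1799 and 1699.9 in the WT libraries. Ebf1 stood at 1354, 1295 and 1369.8 scaled reads in the Ebf1-KO libraries, 1407, 1517 and 1400.3 in the Pax5-KO libraries and 4189.9, 4637 and 4677 in the WT libraries, so its level over all exons does not separate the 2 knockouts. As a check of the labelled cell type, the level summed over 10 pro-B markers was 4605 to 6186 in Ebf1-KO, 14577 to 16748 in Pax5-KO and 27019 to 32274 in WT. Summed over 8 NK and T cell markers it was 856 to 1084 in Ebf1-KO, 59.3 to 84.2 in Pax5-KO and 3.66 to 6.14 in WT, over 6 myeloid markers 1033 to 1133 in Ebf1-KO, 182 to 200.04 in Pax5-KO and 8.16 to 22 in WT, and over 11 stroma markers 336 to 439 in Ebf1-KO, 86.5 to 233 in Pax5-KO and 179.6 to 352 in WT, with Dcn at 0 in all 9 libraries. Pdgfrb made up most of the stroma sum in Ebf1-KO, and the other 10 markers summed to 19.3 to 106 in Ebf1-KO, 54.9 to 210.2 in Pax5-KO and 179.6 to 350.3 in WT, with Acta2 called lower in both knockouts. Xist, the RNA of the inactive X chromosome, was at 44794, 46034 and 35012 scaled reads in the Ebf1-KO libraries, 16, 1.55 and 36.1 in the Pax5-KO libraries and 48.1, 35.8 and 16.2 in the WT libraries, and the Y-linked Ddx3y at most 2.57 in Ebf1-KO and at least 602 elsewhere. Sex and the Ebf1 genotype therefore cannot be told apart in any RNA comparison below that involves Ebf1-KO. The sex of the ATAC libraries is not given, so the same may hold for them.

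In Ebf1-KO cells 10 of the 46 regulators were higher than in WT and 18 were lower. These are 21.7% and 39.1% of the members, while 30.3% of all genes tested were called higher and 27.5% lower. In Pax5-KO cells 7 were higher and 14 lower than in WT, or 15.2% and 30.4%, with 26.5% of all genes called higher and 23.2% lower. Directly compared, 10 regulators were higher in Ebf1-KO than in Pax5-KO and 3 were lower, with 20.3% of all genes called higher and 19.7% lower. The median log2 fold change of the members was -0.13 for Ebf1-KO over WT, -0.10 for Pax5-KO over WT and -0.01 for Ebf1-KO over Pax5-KO, beside -0.0015, 0.03 and -0.0093 over all genes tested. Both knockout comparisons use the same WT libraries, so their values are given side by side. In them 10 members were called lower in both knockouts and 5 higher in both, 2 were called in opposite directions, and 14 were called in neither. The share of all genes called in both knockouts or in neither is not given here. These joint counts therefore cannot show whether members differ from other genes.

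The split between higher and lower rested on the scaling. With the authors' scaling to mapped reads, under which the median gene stood at 0.31 in Ebf1-KO over WT and 0.28 in Pax5-KO over WT, 17 members were higher and 6 lower in Ebf1-KO, 9 higher and 5 lower in Pax5-KO, and 6 higher and 3 lower in Ebf1-KO over Pax5-KO. Of all genes, that scaling called 40.8% higher and 14.4% lower, 34.7% and 11.9%, and 17.5% and 13.3% in the same 3 comparisons. All 10 rises in Ebf1-KO and all 7 in Pax5-KO were called under both scalings, as were 6 and 5 of the falls. Same-numbered RNA libraries deviated together, and with the replicate number as a block 5 members instead of 3 were lower in Ebf1-KO than in Pax5-KO; leaving out Pax5-KO 3 also gave 5. Without the 3 libraries numbered 2, 11 members were lower in Ebf1-KO than in WT, and 4 were higher in Ebf1-KO than in Pax5-KO. Less RNA per cell and fewer cells of a type cannot be told apart in such bulk libraries.

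**Figure D1:**
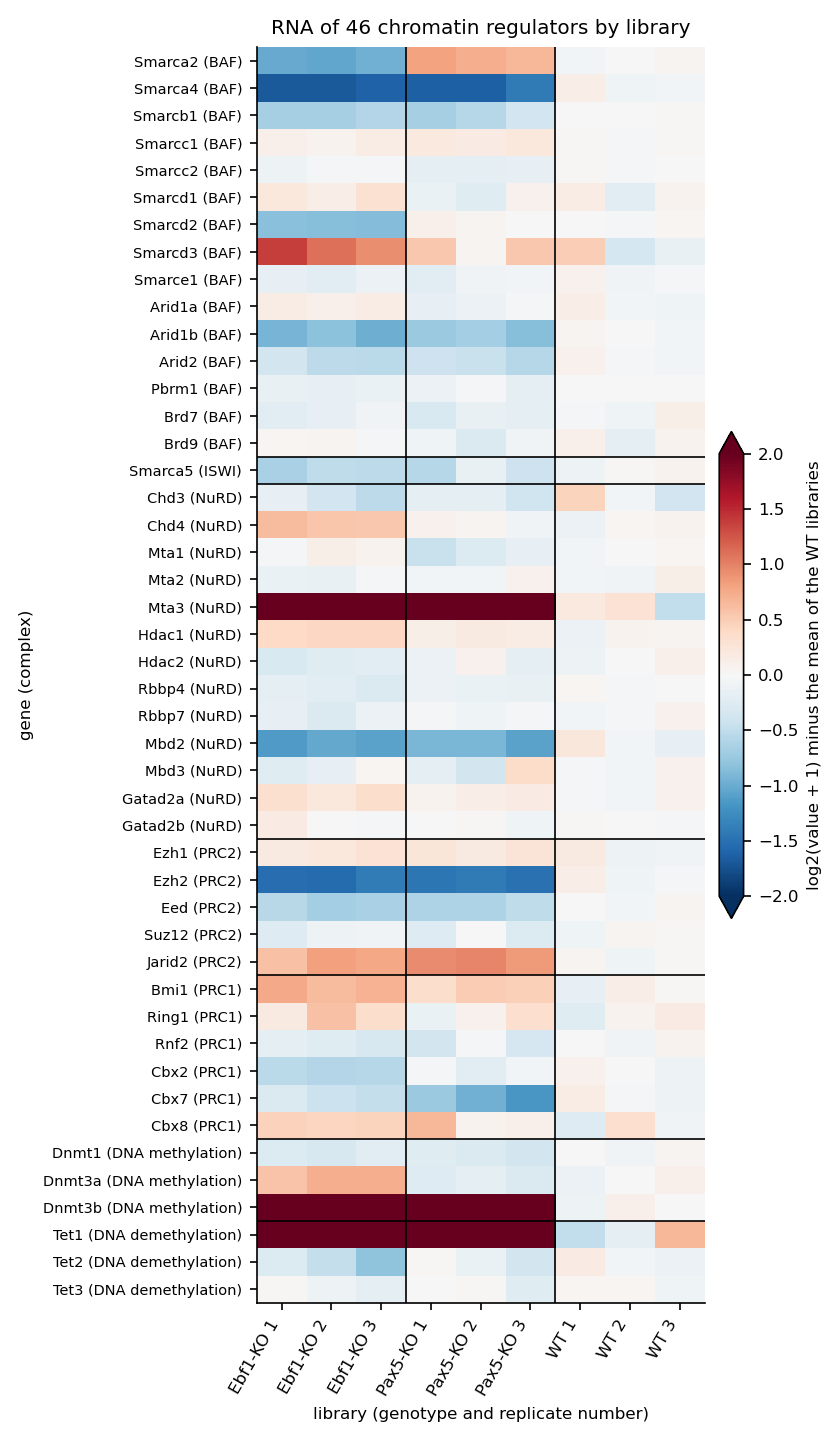
Heat map of 46 regulators (rows, grouped by complex) in 9 RNA libraries (columns), coloured by log2(value + 1) minus the mean of the WT libraries, with colours saturating at -2 and 2. Tet1, Mta3 and Dnmt3b are saturated red in all 6 knockout libraries, Smarca4 and Ezh2 are dark blue in the same 6, and Smarca2 is blue in Ebf1-KO and red in Pax5-KO.

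**Figure D2:**
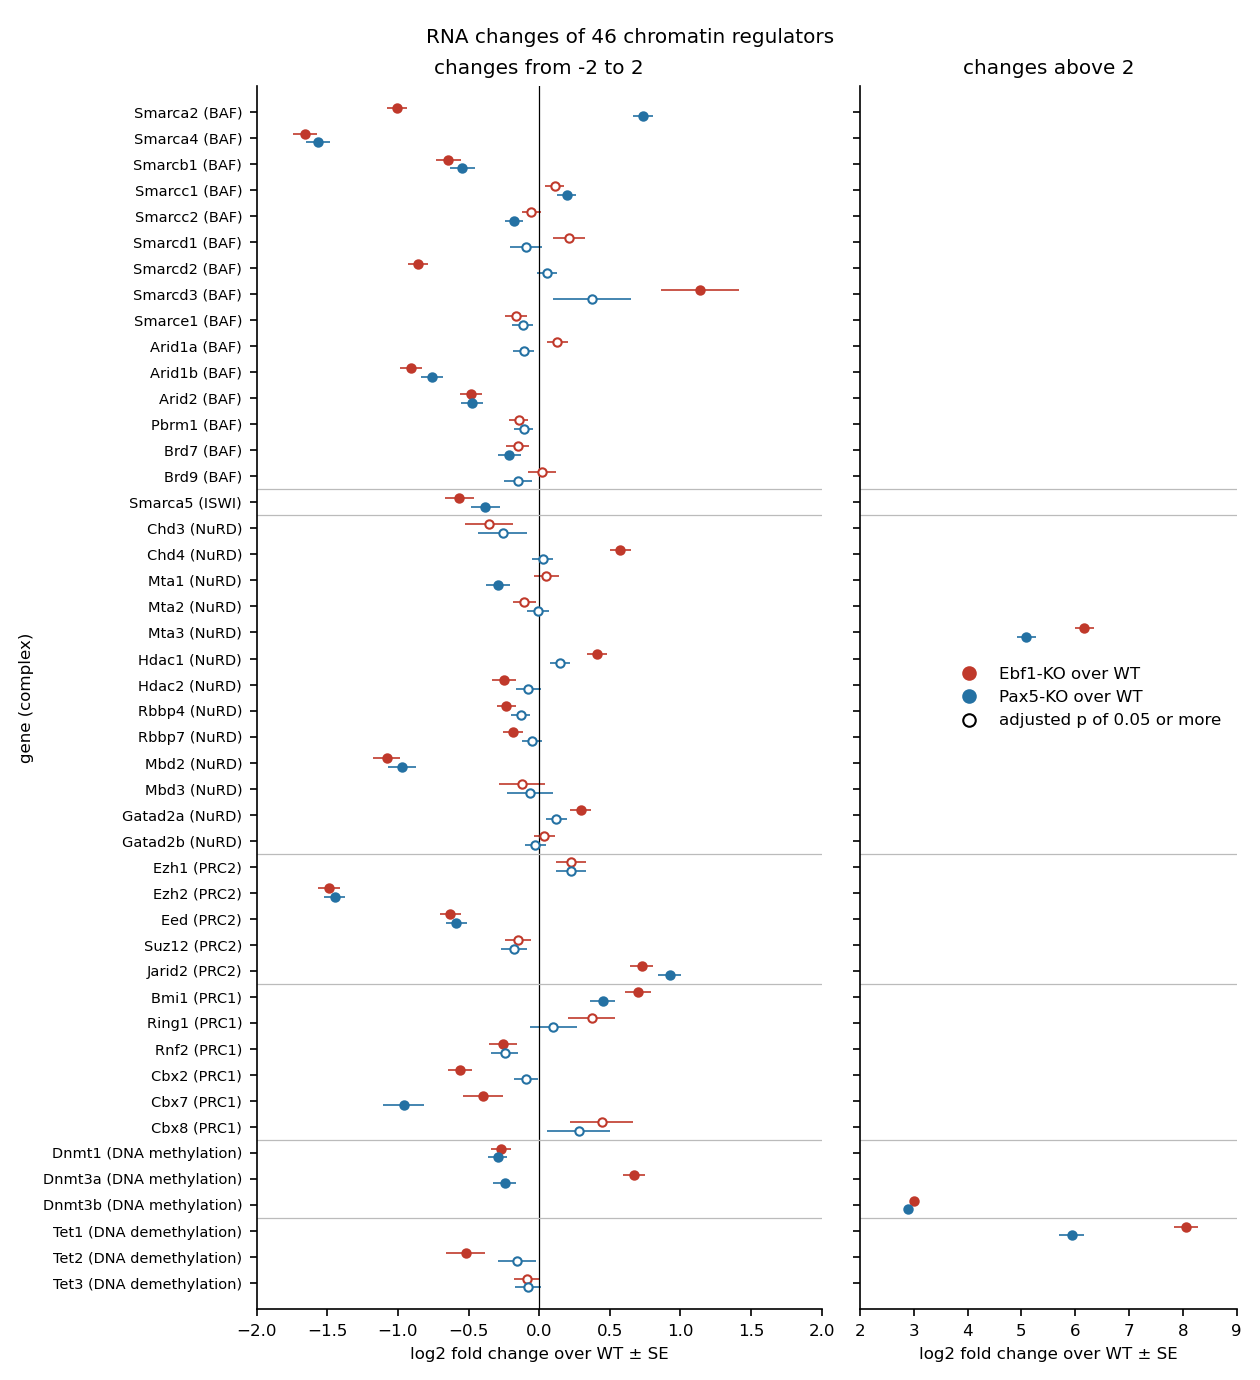
Log2 fold change over WT ± SE (horizontal axis, in 2 panels of different range) of each regulator (vertical axis) in Ebf1-KO (red) and Pax5-KO (blue), with open symbols where the adjusted p was 0.05 or more. Apart from Tet1, Mta3 and Dnmt3b, at 2.89 to 8.06, all values lie between -1.66 and 1.14.

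The ATPases of BAF both fell in Ebf1-KO and moved apart in Pax5-KO. Smarca4, the main SWI/SNF ATPase (also called Brg1), was at 2459, 2444 and 2573 scaled reads in the Ebf1-KO libraries, 2520.5, 2528 and 2948 in the Pax5-KO libraries and 8601, 7442 and 7584 in the WT libraries. The 6 knockout libraries lay below all WT libraries. Smarca4 was 3.15-fold lower in Ebf1-KO than in WT (log2 fold change -1.66, SE 0.09, adjusted p = 4.02e-09) and 2.96-fold lower in Pax5-KO (log2 fold change -1.56, SE 0.09, adjusted p = 1.15e-08). The 2 knockouts overlapped and did not pass the direct test (log2 fold change -0.09, SE 0.09, adjusted p = 0.424). Smarca2 (Brm), which replaces Smarca4 in some BAF complexes, was at 372, 363 and 382 scaled reads in the Ebf1-KO libraries, 1313, 1245 and 1185 in the Pax5-KO libraries and 723, 747 and 775 in the WT libraries. Its 3 groups did not overlap, with Ebf1-KO lowest and Pax5-KO highest. Smarca2 fell in Ebf1-KO (log2 fold change -1.0, SE 0.07, adjusted p = 9.05e-08) and rose in Pax5-KO (log2 fold change 0.74, SE 0.07, adjusted p = 2.63e-06), and was 3.34-fold lower in Ebf1-KO than in Pax5-KO (log2 fold change -1.74, SE 0.07, adjusted p = 1.37e-09).

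Per kb of transcript, Smarca4 averaged 394 ± 11.2 in Ebf1-KO, 421 ± 38.7 in Pax5-KO and 1245 ± 99.9 in WT (SD, n = 3 each), and Smarca2 averaged 64.5 ± 1.7 in Ebf1-KO, 216 ± 11.1 in Pax5-KO and 129.5 ± 4.53 in WT. Smarca2 thus made up 14.1% in Ebf1-KO, 34% in Pax5-KO and 9.47% in WT of the RNA of both ATPases per kb. The sum of both was 458 ± 12.8 in Ebf1-KO, 637 ± 29.7 in Pax5-KO and 1374 ± 96.4 in WT. In every library Smarca4 stayed the more abundant of the pair.

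The Smarca4 gene held a site bound by both EBF1 and PAX5. The deposited ATAC tables cover 14377 ChIP peaks in 3 classes, EBF1-only, PAX5-only and shared, of which 14365 had enough tags to be tested, and 51 peaks had one of 21 members as their nearest gene. A like share of all tested genes had such a peak, 43.9%, against 45.7% of the members. Of the 51 peaks, 27 lay inside the member gene. ATAC values are tags per 10 M tags, as the authors scaled them. In Ebf1-KO 27 of the 51 peaks were less accessible than in WT and 2 more (52.9% and 3.92%), while 51.1% of all bound peaks were called lower and 3.28% higher. In Pax5-KO 25 were less accessible and 2 more (49.0% and 3.92%), with 51.5% of all peaks called lower and 2.11% higher. Member peaks had median log2 fold changes of -0.85 (Ebf1-KO over WT) and -0.60 (Pax5-KO over WT), and all bound peaks -0.78 and -0.75. With TMM scaling over all bound peaks, which moved those all-peak medians to -0.10 and 0.03, 13 member peaks were lower and 9 higher in Ebf1-KO, and 11 lower and 6 higher in Pax5-KO, while 29.7% of all bound peaks were lower and 20.4% higher in Ebf1-KO, with 21.3% lower and 13.7% higher in Pax5-KO. The second call of a rise in Pax5-KO was lost on leaving out any of Ebf1-KO 2, Pax5-KO 1, Pax5-KO 3, WT 2 or WT 3, which left 1.

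The shared Smarca4 peak at chr9:21625347-21625723 (mm10), in intron 1 of 33 and 9.37 kb past the start site, had 6.62, 1.82 and 2.88 tags in the Ebf1-KO libraries, 3.88, 3.98 and 5.21 in the Pax5-KO libraries and 47, 30.8 and 27.2 in the WT libraries. All knockout values lay well below the WT values. It was less accessible in Ebf1-KO (log2 fold change -3.0, SE 0.30, adjusted p = 3.52e-15) and in Pax5-KO (log2 fold change -2.72, SE 0.30, adjusted p = 4.51e-13). The Smarca2 peak, a shared site in intron 5 of 32, was lower in Pax5-KO (log2 fold change -0.66, SE 0.27, adjusted p = 0.0316), a call lost without Pax5-KO 2, or WT 1 or 3 (adjusted p 0.0984 to 0.244) and turned to 0.24 by TMM scaling. In Ebf1-KO the Smarca2 peak was at -0.10 (adjusted p = 0.788), and at 0.78 with TMM scaling (adjusted p = 0.000855). Ebf1-KO over Pax5-KO was called higher there with TMM scaling (0.54).

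Smarca5 (Snf2h), the ATPase of the ISWI remodellers that space nucleosomes, was at 3162, 3492 and 3460.1 scaled reads in the Ebf1-KO libraries, 3349, 4485 and 3728 in the Pax5-KO libraries and 4630.3, 5079.5 and 5251 in the WT libraries. Its knockout libraries all lay below the WT libraries, and it fell in Ebf1-KO (log2 fold change -0.56, SE 0.10, adjusted p = 0.000454) and Pax5-KO (log2 fold change -0.38, SE 0.10, adjusted p = 0.00841). With the authors' scaling both falls were uncalled (-0.25 and -0.12). Ebf1-KO over Pax5-KO was at -0.18, called without Pax5-KO 1 (adjusted p 0.0465). A PAX5-only peak at chr8:80732406-80732654, in intron 3 of 23, had 1.95, 0.61 and 2.24 tags in the Ebf1-KO libraries, 1.06, 1.59 and 0.43 in the Pax5-KO libraries and 17, 7.41 and 13.2 in the WT libraries. It was less accessible in Ebf1-KO (log2 fold change -2.38, SE 0.37, adjusted p = 3.34e-08) and Pax5-KO (log2 fold change -2.71, SE 0.37, adjusted p = 1.04e-09). A further PAX5-only peak assigned to Smarca5 lies past its end and inside Frem3, and was lower too (-1.55 in Ebf1-KO and -1.51 in Pax5-KO, both uncalled with TMM scaling). An EBF1-only peak assigned to it inside Gab1 was at 0.08 and 0.09 and uncalled.

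Among the variant subunits of BAF, Arid1b, a DNA-binding subunit that marks the canonical complex, was at 464, 502 and 448 scaled reads in the Ebf1-KO libraries, 529.6, 551 and 492 in the Pax5-KO libraries and 916, 886 and 858 in the WT libraries. Every knockout library lay below every WT library. It fell in Ebf1-KO (log2 fold change -0.91, SE 0.08, adjusted p = 5.16e-07) and Pax5-KO (log2 fold change -0.76, SE 0.08, adjusted p = 4.19e-06), while its paralog Arid1a was at 0.13 and -0.11 and not called in either, though the first was called with the authors' scaling (0.45), with quantile normalization and without WT 1 (adjusted p 0.0402). Arid1a was higher in Ebf1-KO than in Pax5-KO (log2 fold change 0.24, SE 0.08, adjusted p = 0.0241), which was lost with the authors' scaling and without Ebf1-KO 1, 2 or 3, or Pax5-KO 1 or 2 (adjusted p 0.0507 to 0.0738). Per kb, Arid1b made up 8.47% in Ebf1-KO, 10.8% in Pax5-KO and 16% in WT of the RNA of the pair.

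Arid1b had the most bound peaks of any member, 11, of which 10 lie in its introns. The EBF1-only peak at chr17:5084312-5084582, in intron 2 of 19, had 2.34, 1.82 and 3.84 tags in the Ebf1-KO libraries, 7.76, 4.77 and 4.34 in the Pax5-KO libraries and 39.2, 27.9 and 31.9 in the WT libraries. No knockout library reached a WT library, and the knockouts did not overlap each other. It was less accessible in Ebf1-KO (log2 fold change -3.24, SE 0.29, adjusted p = 3.11e-17) and Pax5-KO (log2 fold change -2.38, SE 0.29, adjusted p = 2.46e-11), and lower in Ebf1-KO than in Pax5-KO (log2 fold change -0.86, SE 0.29, adjusted p = 0.0238). That last call was lost without Ebf1-KO 1 or 2, or Pax5-KO 1 (adjusted p 0.0673 to 0.163). The central 200 bases of this site are shown as those of the EBF1-only member peak with the largest change. They hold no match to the EBF1 palindrome (the core CCCNNGGG with a T before and an A after it) or to the core alone, nor to GCGTGAC, a part of the PAX5 consensus, on either strand, so no base is in capitals.
Arid1b intron 2 site, chr17:5084348-5084547, plus strand: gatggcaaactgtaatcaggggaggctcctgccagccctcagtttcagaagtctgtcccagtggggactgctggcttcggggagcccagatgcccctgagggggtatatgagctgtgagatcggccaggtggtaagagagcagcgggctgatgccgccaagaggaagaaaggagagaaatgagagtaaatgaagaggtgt
In windows of this length around the centre, the palindrome was present in 25.3% of all EBF1-only peaks, 0.636% of PAX5-only and 12.4% of shared peaks. The core CCCNNGGG, which lies within the palindrome, was present in 53.6%, 6.70% and 39.8%, and GCGTGAC in 1.11%, 5.62% and 2.81%. Of the 31 EBF1-only member peaks 7 held the palindrome.

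A PAX5-only peak of the same intron, chr17:5079562-5079810, had 0.39, 3.33 and 2.24 tags in the Ebf1-KO libraries, 2.12, 1.86 and 2.17 in the Pax5-KO libraries and 17.6, 9.4 and 9.58 in the WT libraries, and was lower in both knockouts (-2.24 in Ebf1-KO and -2.06 in Pax5-KO). An EBF1-only peak in intron 4, chr17:5179532-5179802, had 1.17, 0.91 and 1.28 tags in the Ebf1-KO libraries, 8.47, 5.83 and 3.04 in the Pax5-KO libraries and 11.8, 4.56 and 5.96 in the WT libraries. Only its Ebf1-KO libraries lay apart: it was lower in Ebf1-KO than in WT (log2 fold change -1.9, SE 0.36, adjusted p = 2.62e-06) and than in Pax5-KO (log2 fold change -1.6, SE 0.36, adjusted p = 0.0003), and was at -0.31 in Pax5-KO over WT (adjusted p = 0.484). A neighbouring EBF1-only peak at chr17:5172427-5172697 gave -1.62 in Ebf1-KO, called, and -0.67 in Pax5-KO, not called. The direct difference there (-0.95) was called but lost without Ebf1-KO 1 or 2, Pax5-KO 1 or 2, or WT 3 (adjusted p 0.054 to 0.121). An EBF1-only site 48.9 kb before the gene had 5.06, 6.05 and 7.04 tags in the Ebf1-KO libraries, 26.8, 16.7 and 23.9 in the Pax5-KO libraries and 19.6, 10.8 and 12.4 in the WT libraries. It was lower in Ebf1-KO than in WT (-1.08, uncalled with TMM scaling), higher in Pax5-KO (0.63, adjusted p = 0.0427), and lower in Ebf1-KO than in Pax5-KO (log2 fold change -1.72, SE 0.27, adjusted p = 3.92e-07). The rise in Pax5-KO was lost without Ebf1-KO 2, Pax5-KO 1 or 3, or WT 2 or 3 (adjusted p 0.0516 to 0.168). Intronic peaks at chr17:5047334-5047604, chr17:5138770-5139040 and chr17:5180953-5181201 were lower in both knockouts, at -1.21, -1.19 and -1.36 in Ebf1-KO, and in Pax5-KO at -1.33, -1.17 and -1.54, all uncalled with TMM scaling. A peak at chr17:5192475-5192723 was lower in Pax5-KO (-1.11), lost with TMM scaling and without Pax5-KO 3, or WT 2 (adjusted p 0.0647 to 0.253). The remaining 2 were not called.

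Among the alternative Smarcd subunits, which link BAF to transcription factors, Smarcd2 was at 259.7, 258 and 254 scaled reads in the Ebf1-KO libraries, 500.00, 485 and 470.5 in the Pax5-KO libraries and 463, 457 and 479 in the WT libraries. Ebf1-KO stood alone: Smarcd2 was lower there than in WT (log2 fold change -0.86, SE 0.07, adjusted p = 4.36e-07) and than in Pax5-KO (log2 fold change -0.91, SE 0.07, adjusted p = 4.37e-07), while Pax5-KO over WT was at 0.06 (adjusted p = 0.54). Smarcd1 was at 0.21 in Ebf1-KO and -0.10 in Pax5-KO, not called, and with the replicate block it was higher in Ebf1-KO than in WT (adjusted p = 0.0378, and 0.0167 with the authors' scaling) and than in Pax5-KO (0.31, adjusted p = 0.00822). The second of these was also called by edgeR, by DESeq2 and with quantile normalization, and without Pax5-KO 3, or WT 1 or 2 (adjusted p 0.0178 to 0.0448). Per kb, Smarcd2 made up 49% in Ebf1-KO, 69.4% in Pax5-KO and 67.2% in WT of the family, and Smarcd1 49.4% in Ebf1-KO, 30.03% in Pax5-KO and 32.3% in WT. Smarcd3 was close to absent, at 6.18, 4.94 and 4.27 scaled reads in the Ebf1-KO libraries, 3.02, 1.85 and 3.03 in the Pax5-KO libraries and 2.89, 1.17 and 1.5 in the WT libraries. Only the Ebf1-KO libraries stood apart from WT. It rose in Ebf1-KO over WT (log2 fold change 1.14, SE 0.28, adjusted p = 0.00349) and was called in Ebf1-KO over Pax5-KO (log2 fold change 0.76, SE 0.28, adjusted p = 0.0445), a call that edgeR and DESeq2 did not make and that was lost without Ebf1-KO 1, 2 or 3, Pax5-KO 1, 2 or 3, or WT 3 (adjusted p 0.0503 to 0.153). Exons of Chpf2 on the other strand share 33.0% of the Smarcd3 exon bases, and since the strand used for counting is not stated, reads of the 2 genes cannot be told apart. An EBF1-only peak in intron 1 of Smarcd2, chr11:106269125-106269395, was lower in Ebf1-KO (log2 fold change -1.05, SE 0.27, adjusted p = 0.00057, uncalled with TMM scaling) and at -0.44 in Pax5-KO, not called. In Ebf1-KO over Pax5-KO it was called lower with TMM scaling (-0.64). Its promoter peak was not called, save higher in Ebf1-KO with TMM scaling (0.69).

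Of the remaining BAF subunits, Smarcb1, a core subunit, fell in Ebf1-KO (log2 fold change -0.64, SE 0.09, adjusted p = 3.76e-05) and Pax5-KO (log2 fold change -0.54, SE 0.09, adjusted p = 0.000211), and Arid2, which marks the PBAF variant, fell by like amounts (-0.48 and -0.48, adjusted p = 0.000166 and 0.000236). All 4 of these calls were lost with the authors' scaling (-0.16 to -0.32). The scaffold subunit Smarcc1 was slightly higher in Pax5-KO (log2 fold change 0.19, SE 0.07, adjusted p = 0.0264), lost without Pax5-KO 1, or WT 2 or 3 (adjusted p 0.0534 to 0.1), and was at 0.11 in Ebf1-KO, called with the authors' scaling (0.43) and with quantile normalization. Its paralog Smarcc2 was slightly lower there (log2 fold change -0.18, SE 0.06, adjusted p = 0.0393), lost without Ebf1-KO 2 or 3, Pax5-KO 1 or 2, or WT 1, 2 or 3 (adjusted p 0.0508 to 0.0983) and turned to 0.08 by the authors' scaling. The bromodomain subunit Brd7 was lower in Pax5-KO (log2 fold change -0.21, SE 0.08, adjusted p = 0.0454), lost without Ebf1-KO 2 or 3, Pax5-KO 1, 2 or 3, or WT 1 or 3 (adjusted p 0.0501 to 0.176) and turned to 0.05 by the authors' scaling. Smarce1, Pbrm1 and Brd9 were called in no comparison, with log2 fold changes over WT between -0.16 and 0.02, save that Pbrm1 was called lower in Ebf1-KO without Pax5-KO 3 (adjusted p 0.0487). In all, 1 of 15 BAF members was higher and 6 lower in Ebf1-KO (30.3% and 27.5% of all genes), and 2 were higher and 6 lower in Pax5-KO (26.5% and 23.2% of all genes). Near Brd7, a PAX5-only site 18.4 kb before the gene was lower in Ebf1-KO (-1.71) and in Ebf1-KO over Pax5-KO (-1.27), and another 30.4 kb before it was lower in Ebf1-KO (-0.90) and Pax5-KO (-1.16). Both calls at the farther site were lost with TMM scaling, the Ebf1-KO one without Ebf1-KO 1 or 3, or WT 3 (adjusted p 0.0636 to 0.157), and the Pax5-KO one without WT 3 (adjusted p 0.0508). The nearer site was called lower in Pax5-KO without WT 2 (adjusted p 0.0231). The Smarcc1 promoter peak was lower in Pax5-KO (-0.60, adjusted p = 0.0451), lost without Ebf1-KO 1, 2 or 3, Pax5-KO 2 or 3, or WT 1 (adjusted p 0.0504 to 0.203) and turned to 0.29 by TMM scaling. In Ebf1-KO that peak was called higher with TMM scaling (0.58). Peaks of Arid1a, Arid2 and Smarce1 were not called, save that of Arid2 with TMM scaling (1.42 in Ebf1-KO and 0.93 in Pax5-KO).

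**Figure D3:**
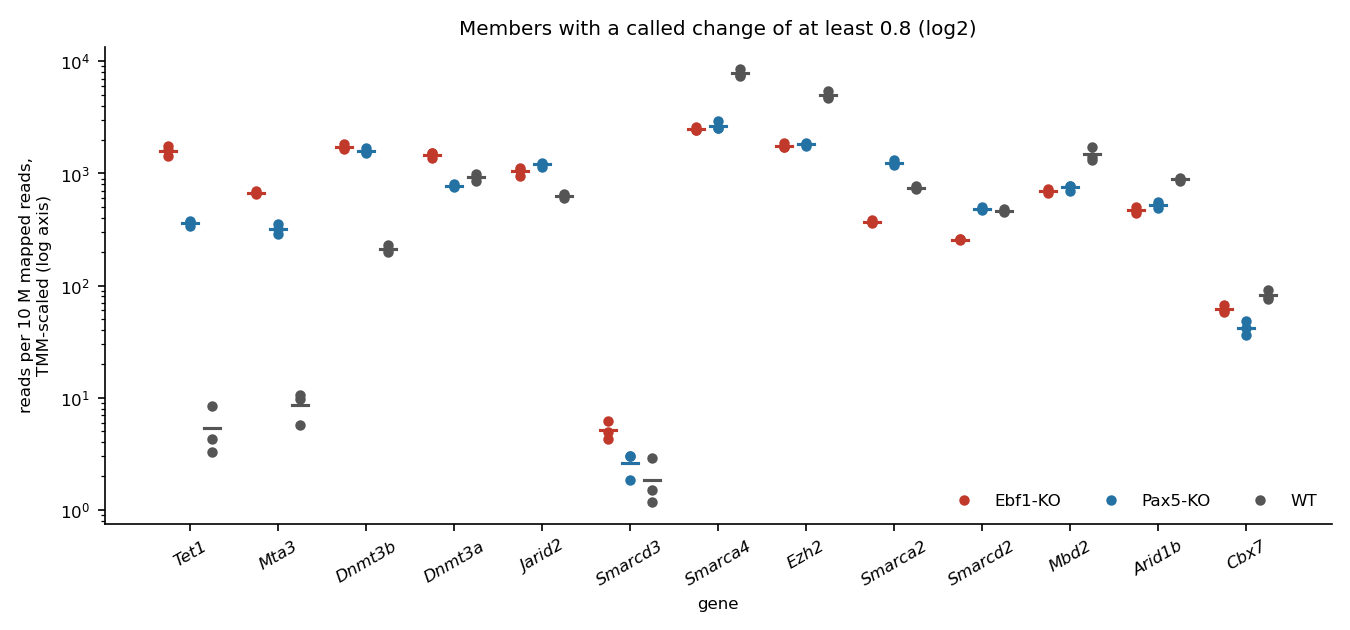
Scaled reads (log axis) in each of the 9 libraries for the 13 regulators with a called log2 change of at least 0.8, in Ebf1-KO (red), Pax5-KO (blue) and WT (grey), with a bar at each mean. Tet1 and Mta3 lie at 287 to 1768 in the knockouts and at 3.25 to 10.5 in WT, and Smarca2 and Dnmt3a are the genes whose knockout groups lie on opposite sides of WT.

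NuRD changed most in 1 subunit. Mta3, one of 3 alternative MTA scaffold proteins and known in mature B cells for its part in repression by BCL6, was at 699, 655 and 667 scaled reads in the Ebf1-KO libraries, 317, 287 and 352 in the Pax5-KO libraries and 9.75, 10.5 and 5.66 in the WT libraries. All 6 knockout libraries lay far above WT, and the Ebf1-KO libraries lay above the Pax5-KO libraries. Mta3 was 71.9-fold higher in Ebf1-KO than in WT (log2 fold change 6.17, SE 0.18, adjusted p = 2.11e-11) and 34-fold higher in Pax5-KO (log2 fold change 5.09, SE 0.18, adjusted p = 2.36e-10), and 2.12-fold higher in Ebf1-KO than in Pax5-KO (log2 fold change 1.08, SE 0.18, adjusted p = 0.000315). It ranked 151 of 12839 genes by log2 rise in both knockout comparisons. Mta1 was lower in Pax5-KO than in WT (log2 fold change -0.29, SE 0.09, adjusted p = 0.0158) and higher in Ebf1-KO than in Pax5-KO (log2 fold change 0.34, SE 0.09, adjusted p = 0.00808). Both Mta1 calls were lost with the authors' scaling, and the fall in Pax5-KO without Pax5-KO 1, or WT 3 (adjusted p 0.0555 to 0.064). Mta2 was called in no comparison (-0.10 and -0.01). Per kb of transcript, Mta3 averaged 321 ± 10.7 in Ebf1-KO, 152 ± 15.5 in Pax5-KO and 4.12 ± 1.24 in WT (SD, n = 3 each), and made up 43% in Ebf1-KO, 27.3% in Pax5-KO and 0.94% in WT of the RNA of the 3 genes. Mta2 made up 32.7% in Ebf1-KO, 46.9% in Pax5-KO and 59.3% in WT. The sum over the family was 748 ± 11.3 in Ebf1-KO, 558 ± 39.5 in Pax5-KO and 443 ± 22.2 in WT.

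At Mta3 a bound promoter site was more accessible in both knockouts. The EBF1-only peak at chr17:83705715-83705985, 313 bp before the start site, had 12.8, 20.9 and 16.3 tags in the Ebf1-KO libraries, 19.8, 12.5 and 16.1 in the Pax5-KO libraries and 11.1, 7.41 and 5.7 in the WT libraries. All knockout libraries lay above all WT libraries. It was higher in Ebf1-KO (log2 fold change 0.98, SE 0.27, adjusted p = 0.00143) and Pax5-KO (log2 fold change 0.93, SE 0.27, adjusted p = 0.00267). Its central 200 bases are shown because they gave the largest called rise of any member peak, a choice made after the values were seen. The capitals mark the match to the EBF1 palindrome.
Mta3 promoter site, chr17:83705751-83705950, plus strand: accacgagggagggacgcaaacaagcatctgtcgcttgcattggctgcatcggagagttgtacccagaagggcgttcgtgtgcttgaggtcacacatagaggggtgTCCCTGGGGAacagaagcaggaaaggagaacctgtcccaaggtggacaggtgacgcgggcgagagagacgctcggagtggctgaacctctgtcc
In intron 3 of Mta3 an EBF1-only peak, chr17:83732323-83732593, had 23.4, 26.3 and 27.9 tags in the Ebf1-KO libraries, 22.6, 16.4 and 12.2 in the Pax5-KO libraries and 17, 14.2 and 13.5 in the WT libraries. It was more accessible in Ebf1-KO (log2 fold change 0.76, SE 0.26, adjusted p = 0.0106), a call lost without WT 3 (adjusted p 0.0551), and was at 0.15 in Pax5-KO, called with TMM scaling (1.02). Ebf1-KO over Pax5-KO was at 0.61, called without Pax5-KO 1, or WT 2 (adjusted p 0.0306 to 0.0446). A PAX5-only peak in intron 8 was higher in Ebf1-KO than in Pax5-KO (log2 fold change 0.79, SE 0.27, adjusted p = 0.0258), lost without Ebf1-KO 2 or 3, or Pax5-KO 2 or 3 (adjusted p 0.0853 to 0.158). It was at -0.54 in Pax5-KO over WT, called without Pax5-KO 1, or WT 2 (adjusted p 0.0045 to 0.0363). A PAX5-only peak in intron 3, the member peak that holds GCGTGAC, was not called, save higher with TMM scaling (1.44 in Ebf1-KO and 1.1 in Pax5-KO). The intron 8 peak was called higher in Ebf1-KO over WT with TMM scaling (1.13).

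Mbd2, the methyl-DNA-binding subunit of one NuRD variant, was at 667, 723 and 697 scaled reads in the Ebf1-KO libraries, 778, 776 and 698 in the Pax5-KO libraries and 1713, 1408 and 1317 in the WT libraries. Each knockout library lay below each WT library. It fell in Ebf1-KO (log2 fold change -1.08, SE 0.10, adjusted p = 8.91e-07) and Pax5-KO (log2 fold change -0.97, SE 0.10, adjusted p = 3.5e-06). Its paralog Mbd3, which defines the other variant, was at -0.12 and -0.06, not called. Mbd2 made up 76% in Ebf1-KO, 76.3% in Pax5-KO and 86% in WT of the pair per kb.

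Chd4 (Mi-2 beta), the main NuRD ATPase, was at 5899, 5546 and 5511 scaled reads in the Ebf1-KO libraries, 4011, 3937 and 3623 in the Pax5-KO libraries and 3511, 3874 and 3999 in the WT libraries. The Ebf1-KO libraries lay above all others, and Pax5-KO overlapped WT. Chd4 was higher in Ebf1-KO than in WT (log2 fold change 0.58, SE 0.08, adjusted p = 3.37e-05) and than in Pax5-KO (log2 fold change 0.55, SE 0.08, adjusted p = 7.98e-05), and at 0.02 in Pax5-KO over WT (adjusted p = 0.815). Chd3, the other CHD ATPase, was at 336, 290.5 and 262 scaled reads in the Ebf1-KO libraries, 331, 332 and 285 in the Pax5-KO libraries and 513, 362 and 289 in the WT libraries, with WT libraries that overlapped both knockouts. It was not called in Ebf1-KO (log2 fold change -0.35, SE 0.17, adjusted p = 0.098; with the replicate block adjusted p = 0.0116) or Pax5-KO (-0.26), and was called lower in Ebf1-KO without WT 3 (adjusted p 0.0128) and in Pax5-KO without WT 3 (adjusted p 0.0379). Chd3 made up 4.41% in Ebf1-KO, 6.73% in Pax5-KO and 8.34% in WT of the pair per kb.

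The deacetylase Hdac1 was at 1845, 1866 and 1860.1 scaled reads in the Ebf1-KO libraries, 1521, 1583 and 1546 in the Pax5-KO libraries and 1285, 1468 and 1446 in the WT libraries. The groups did not overlap, with Ebf1-KO highest and WT lowest. Hdac1 was higher in Ebf1-KO than in WT (log2 fold change 0.41, SE 0.07, adjusted p = 0.000297) and than in Pax5-KO (log2 fold change 0.26, SE 0.07, adjusted p = 0.0106, lost with the authors' scaling). In Pax5-KO over WT it was at 0.15 (adjusted p = 0.1, and 0.0372 with the authors' scaling). Hdac2, with which it shares the complex, was at 1255, 1308 and 1344 scaled reads in the Ebf1-KO libraries, 1422, 1644 and 1356 in the Pax5-KO libraries and 1437, 1549 and 1667 in the WT libraries. Ebf1-KO lay below WT and Pax5-KO overlapped it. Hdac2 was lower in Ebf1-KO (log2 fold change -0.25, SE 0.09, adjusted p = 0.0272), turned to 0.07 by the authors' scaling and lost without Ebf1-KO 1 or 2, or WT 2 or 3 (adjusted p 0.0642 to 0.113). Hdac1 made up 59.2% in Ebf1-KO, 51.8% in Pax5-KO and 47.9% in WT of the pair per kb, and their sum was 1605 ± 26.9 in Ebf1-KO, 1534 ± 89.4 in Pax5-KO and 1496 ± 103 in WT.

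The histone-binding subunits were slightly lower in Ebf1-KO than in WT, Rbbp4 at -0.23 (adjusted p = 0.0104) and the X-linked Rbbp7 at -0.18 (adjusted p = 0.0462) on the log2 scale. With the authors' scaling they were at 0.09 and 0.13 and uncalled, and the Rbbp7 call was lost without Ebf1-KO 1 or 2, Pax5-KO 1 or 2, or WT 2 or 3 (adjusted p 0.0531 to 0.192). Exons of other-strand genes share 18.1% (Gm26722) and 11.8% (Sync) of Rbbp4 exon bases and 7.42% (Txlng) of Rbbp7 exon bases. The linker Gatad2a was higher in Ebf1-KO (log2 fold change 0.29, SE 0.07, adjusted p = 0.00384), and with the replicate block also higher in Ebf1-KO than in Pax5-KO (0.17, adjusted p = 0.0324), as by DESeq2. Gatad2b was called in no comparison, save higher in Ebf1-KO with the authors' scaling (0.35). In all, 4 of 13 NuRD members were higher and 4 lower in Ebf1-KO, near the 30.3% and 27.5% of all genes, and 1 was higher and 2 lower in Pax5-KO, where 26.5% and 23.2% of all genes were. The Gatad2a peak was not called.

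**Figure D4:**
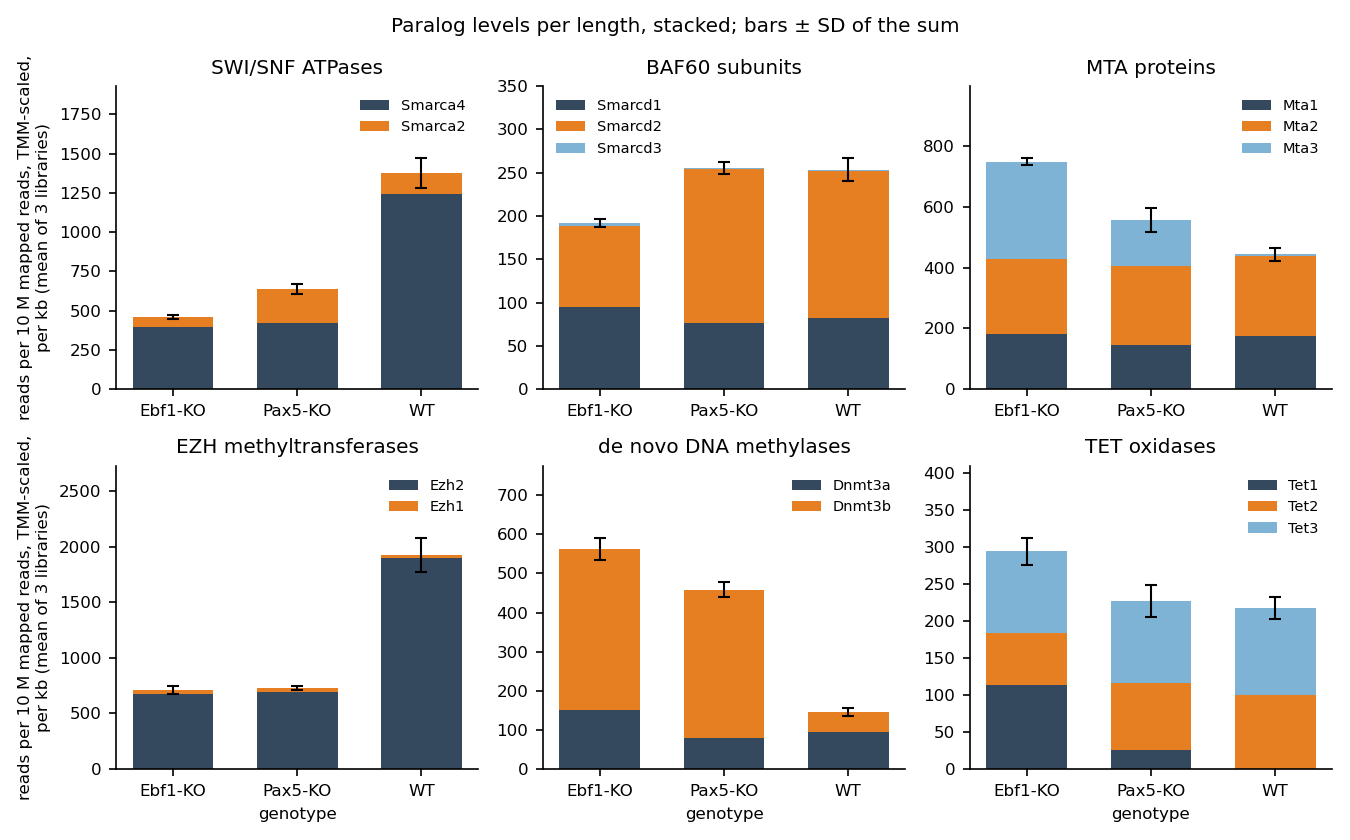
Stacked bars of the mean level per kb of transcript (scaled reads per kb, mean of 3 libraries) of paralogs in 6 families for Ebf1-KO, Pax5-KO and WT, with the SD of the sum over libraries as the error bar. The SWI/SNF ATPase sum is 458 in Ebf1-KO and 637 in Pax5-KO beside 1374 in WT, and the de novo DNA methylase sum is 562 and 459 beside 146.

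In PRC2 the RNA of the main enzyme fell in both knockouts. Ezh2, the H3 methyltransferase of PRC2, was at 1727, 1715 and 1876 scaled reads in the Ebf1-KO libraries, 1825, 1868 and 1773 in the Pax5-KO libraries and 5432, 4695 and 4819 in the WT libraries. All knockout libraries lay below WT and the knockouts overlapped. Ezh2 was 2.81-fold lower in Ebf1-KO (log2 fold change -1.49, SE 0.08, adjusted p = 3.9e-09) and 2.73-fold lower in Pax5-KO (log2 fold change -1.45, SE 0.08, adjusted p = 8.44e-09), with a direct difference of -0.04 (SE 0.08, adjusted p = 0.713). Ezh1, its paralog of non-dividing cells, was at 143, 146 and 153 scaled reads in the Ebf1-KO libraries, 148, 142 and 151 in the Pax5-KO libraries and 142, 117 and 119.7 in the WT libraries. Its knockout libraries lay above WT by a small margin. Ezh1 was not called in Ebf1-KO (log2 fold change 0.23, SE 0.10, adjusted p = 0.0817) or Pax5-KO (log2 fold change 0.23, SE 0.10, adjusted p = 0.0913). Both were called higher with the authors' scaling, and without WT 1 (adjusted p 0.0217 in Ebf1-KO and 0.0262 in Pax5-KO). Per kb, Ezh2 averaged 674 ± 34 in Ebf1-KO, 693 ± 18 in Pax5-KO and 1894 ± 150.1 in WT, and made up 95% in Ebf1-KO, 95.2% in Pax5-KO and 98.4% in WT of the pair. Ezh2 fell in the same libraries as proliferation genes. Of 14 cycling markers, 13 were lower in Ebf1-KO and 9 in Pax5-KO, with none higher, beside 27.5% and 23.2% of all genes lower. With the authors' scaling 5 of 14 were lower in each, beside 14.4% and 11.9% of all genes. In the main fit the markers lay at -1.14 to -0.13 in Ebf1-KO and -1.3 to 0.03 in Pax5-KO, so none fell as far as Ezh2. Their summed level was 36811 to 43869 in Ebf1-KO, 39095 to 41459.5 in Pax5-KO and 68443 to 71332 in WT. Mki67 and Top2a made up most of that sum. The part of these cells' cycling in the Ezh2 result was not tested.

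Upstream of Ezh2, an EBF1-only peak at chr6:47621113-47621383, 26.2 kb before the start site, had 5.06, 5.75 and 3.52 tags in the Ebf1-KO libraries, 1.76, 3.18 and 3.04 in the Pax5-KO libraries and 21.6, 12 and 11.7 in the WT libraries. It was less accessible in Ebf1-KO (log2 fold change -1.44, SE 0.31, adjusted p = 4.88e-05, -0.63 and uncalled with TMM scaling) and Pax5-KO (log2 fold change -2.1, SE 0.31, adjusted p = 1.58e-08). The promoter peak, 878 bp before the start, was at -0.75 and -0.57 and not called.

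The PRC2 core subunit Eed fell in Ebf1-KO (log2 fold change -0.63, SE 0.07, adjusted p = 9.85e-06) and Pax5-KO (log2 fold change -0.59, SE 0.07, adjusted p = 2.64e-05), lost in both with the authors' scaling (-0.31 and -0.33). Exons of E230029C05Rik on the other strand share 12.6% of its exon bases. Suz12, the third core subunit, was called in no comparison (-0.15 and -0.18), save lower in Pax5-KO without Pax5-KO 2 (adjusted p 0.0295). Jarid2, an accessory subunit that guides PRC2 to chromatin, was at 952, 1112 and 1082 scaled reads in the Ebf1-KO libraries, 1225, 1245 and 1137 in the Pax5-KO libraries and 658, 598 and 641 in the WT libraries. In contrast to Ezh2 and Eed, every knockout library lay above WT. Jarid2 rose in Ebf1-KO (log2 fold change 0.73, SE 0.08, adjusted p = 6.7e-06) and Pax5-KO (log2 fold change 0.93, SE 0.08, adjusted p = 9.92e-07), and with the replicate block was lower in Ebf1-KO than in Pax5-KO (-0.20, adjusted p = 0.0499), as it was without Pax5-KO 3 (adjusted p 0.0446).

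The RNA of Jarid2 rose while bound sites in and before the gene were less accessible. An EBF1-only peak in intron 2 of 18, chr13:44780589-44780859, had 0.39, 0.30 and 1.28 tags in the Ebf1-KO libraries, 2.12, 2.12 and 1.74 in the Pax5-KO libraries and 7.84, 7.98 and 4.4 in the WT libraries. It was lower in Ebf1-KO (log2 fold change -2.23, SE 0.37, adjusted p = 2.18e-07) and Pax5-KO (log2 fold change -1.34, SE 0.37, adjusted p = 0.00169, uncalled with TMM scaling), and at -0.90 in Ebf1-KO over Pax5-KO, called with TMM scaling or without Ebf1-KO 3 (adjusted p 0.0458). A PAX5-only peak in the same intron, chr13:44767696-44767944, had 0.78, 1.82 and 1.28 tags in the Ebf1-KO libraries, 0.35, 1.59 and 0.87 in the Pax5-KO libraries and 9.8, 6.84 and 6.47 in the WT libraries. It was lower in Ebf1-KO (log2 fold change -1.93, SE 0.37, adjusted p = 5.83e-06) and Pax5-KO (log2 fold change -2.2, SE 0.37, adjusted p = 4.69e-07). Further PAX5-only peaks of that intron gave -1.65 and -1.72 at chr13:44800054-44800302, and -1.5 and -1.49 at chr13:44811412-44811660, in Ebf1-KO and Pax5-KO over WT, all called, the second pair not with TMM scaling. EBF1-only sites before the gene were lower in Ebf1-KO (-1.29 and -1.24, uncalled with TMM scaling). The nearer one, 10.4 kb before the start, was also lower in Pax5-KO (-0.90), lost with TMM scaling and without Pax5-KO 1 or 2, or WT 3 (adjusted p 0.101 to 0.179). The farther one was lower in Ebf1-KO than in Pax5-KO (log2 fold change -1.38, SE 0.39, adjusted p = 0.00538). With the authors' scaling all 6 Jarid2 peaks were thus called less accessible in Ebf1-KO, some of them not with TMM scaling. Of all bound peaks 51.1% were called lower there with the authors' scaling.

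In PRC1, Bmi1 rose and Cbx7 fell in both knockouts. The catalytic subunit Rnf2 (Ring1b) was at 387, 377 and 355 scaled reads in the Ebf1-KO libraries, 346, 435 and 351 in the Pax5-KO libraries and 447, 421 and 466 in the WT libraries. Ebf1-KO lay just below WT and Pax5-KO overlapped both. Rnf2 was lower in Ebf1-KO (log2 fold change -0.25, SE 0.10, adjusted p = 0.0423), turned to 0.06 by the authors' scaling and lost without Ebf1-KO 1, 2 or 3, or WT 1, 2 or 3 (adjusted p 0.0516 to 0.131). In Pax5-KO it was at -0.25 (adjusted p = 0.0556, and 0.0381 with the replicate block; DESeq2 also called it), and called without Pax5-KO 2 (adjusted p 0.0078). Its paralog Ring1 was at 68.7, 92.1 and 77.7 scaled reads in the Ebf1-KO libraries, 55.5, 64.9 and 77.2 in the Pax5-KO libraries and 51.3, 64.2 and 68.3 in the WT libraries, and was not called in Ebf1-KO (log2 fold change 0.37, SE 0.17, adjusted p = 0.0761; with the replicate block adjusted p = 0.018) or Pax5-KO (0.10). The first was also called with the authors' scaling (adjusted p = 0.0207) and without Ebf1-KO 1 (adjusted p 0.0474). Bmi1, which stimulates the ligase, rose in Ebf1-KO (log2 fold change 0.70, SE 0.09, adjusted p = 2.48e-05) and Pax5-KO (log2 fold change 0.45, SE 0.09, adjusted p = 0.00123) and was higher in Ebf1-KO than in Pax5-KO (log2 fold change 0.25, SE 0.09, adjusted p = 0.0423), lost without Ebf1-KO 1, 2 or 3, Pax5-KO 1, 2 or 3, or WT 3 (adjusted p 0.0538 to 0.128).

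Among the CBX readers of methylated H3, Cbx7 was at 66.9, 60.4 and 58.6 scaled reads in the Ebf1-KO libraries, 48.3, 41.4 and 36 in the Pax5-KO libraries and 91, 79.3 and 75.8 in the WT libraries. Its groups did not overlap, with Pax5-KO lowest. Cbx7 fell in Pax5-KO (log2 fold change -0.96, SE 0.14, adjusted p = 0.000123) and was higher in Ebf1-KO than in Pax5-KO (log2 fold change 0.56, SE 0.14, adjusted p = 0.00751). Its fall in Ebf1-KO (log2 fold change -0.40, SE 0.14, adjusted p = 0.032) was lost with the authors' scaling (-0.08) and without Ebf1-KO 2 or 3, or WT 1 or 2 (adjusted p 0.0589 to 0.108). Cbx2 fell in Ebf1-KO against WT (log2 fold change -0.56, SE 0.08, adjusted p = 9.1e-05, uncalled with the authors' scaling) and against Pax5-KO (log2 fold change -0.47, SE 0.08, adjusted p = 0.000667), and was at -0.10 in Pax5-KO over WT, not called. Cbx8, at 7.95 to 16 scaled reads in all libraries, was called in no comparison, save higher in Ebf1-KO than in WT with the authors' scaling (0.73) and without WT 2 (adjusted p 0.0495). A PAX5-only peak in intron 2 of Cbx7, chr15:79927641-79927889, was lower in Ebf1-KO (-0.91) and Pax5-KO (-1.13), both uncalled with TMM scaling, and the first lost without Ebf1-KO 2, or WT 3 (adjusted p 0.0663 to 0.0745). An EBF1-only site 6.95 kb before Cbx8 was lower in Ebf1-KO (-0.85), lost with TMM scaling and without Ebf1-KO 1 or 3, or WT 1 or 3 (adjusted p 0.0669 to 0.164). Ebf1-KO over Pax5-KO was at -0.80 there, called without Ebf1-KO 2 (adjusted p 0.0241). The peaks of Cbx2, Suz12 and Eed were not called, save that of Suz12 with TMM scaling (0.71 in Ebf1-KO and 0.57 in Pax5-KO).

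Of the DNA methyltransferases, Dnmt3b, a de novo enzyme typical of early embryonic and stem cells, was at 1649, 1696 and 1818 scaled reads in the Ebf1-KO libraries, 1515, 1556 and 1686 in the Pax5-KO libraries and 198, 229.8 and 213 in the WT libraries. All knockout libraries lay above WT, and the knockouts overlapped. Dnmt3b was 8.03-fold higher in Ebf1-KO (log2 fold change 3.01, SE 0.08, adjusted p = 1.23e-11) and 7.4-fold higher in Pax5-KO (log2 fold change 2.89, SE 0.08, adjusted p = 3.7e-11), with a direct difference of 0.12 (SE 0.08, adjusted p = 0.278). Dnmt3a, the other de novo enzyme, was at 1367, 1518 and 1523 scaled reads in the Ebf1-KO libraries, 771, 805 and 756 in the Pax5-KO libraries and 852, 931 and 986 in the WT libraries. Its groups did not overlap, with Ebf1-KO above and Pax5-KO below WT. Dnmt3a rose in Ebf1-KO (log2 fold change 0.67, SE 0.08, adjusted p = 1.05e-05) and was higher there than in Pax5-KO (log2 fold change 0.92, SE 0.08, adjusted p = 1.01e-06). It was slightly lower in Pax5-KO than in WT (log2 fold change -0.24, SE 0.08, adjusted p = 0.0215), turned to 0.01 by the authors' scaling and lost without WT 2 or 3 (adjusted p 0.0655 to 0.0926). Per kb, Dnmt3b averaged 411 ± 20.8 in Ebf1-KO, 379 ± 21.4 in Pax5-KO and 51 ± 3.8 in WT, and made up 73.1% in Ebf1-KO, 82.5% in Pax5-KO and 34.9% in WT of the pair. Dnmt3a was the more abundant of the 2 per kb in WT, and Dnmt3b in both knockouts.

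No bound peak in the tables had Dnmt3b as its nearest gene. The largest loss of accessibility at any member peak was near Dnmt3a, at a shared site 3.58 kb past the end of the gene, chr12:3917846-3918199. It had 2.73, 2.42 and 1.92 tags in the Ebf1-KO libraries, 5.64, 4.77 and 1.74 in the Pax5-KO libraries and 89.5, 40.7 and 64 in the WT libraries. The site was less accessible in Ebf1-KO (log2 fold change -4.23, SE 0.30, adjusted p = 8.34e-23) and Pax5-KO (log2 fold change -3.73, SE 0.30, adjusted p = 1.59e-19). No knockout library reached a WT library. The knockouts overlapped, with a direct difference of -0.50 that was called without Pax5-KO 3 (adjusted p 0.0323). Its central 200 bases are shown as those of the shared member peak with the largest change, with capitals on the match to CCCNNGGG. They hold neither the full palindrome nor GCGTGAC.
Dnmt3a downstream site, chr12:3917923-3918122, plus strand: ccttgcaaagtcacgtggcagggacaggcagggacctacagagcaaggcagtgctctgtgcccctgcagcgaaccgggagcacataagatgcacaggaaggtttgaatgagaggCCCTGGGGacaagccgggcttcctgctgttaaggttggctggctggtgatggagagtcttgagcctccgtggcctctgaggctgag
In intron 1 of Dnmt3a an EBF1-only peak, chr12:3824535-3824805, was lower in Ebf1-KO (-1.79) and Pax5-KO (-1.63). A peak at an internal promoter, chr12:3891164-3891434, was lower in Pax5-KO (-1.03, -0.22 and uncalled with TMM scaling) and at -0.57 in Ebf1-KO, not called. The fourth peak was not called.

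Dnmt1, which copies methylation after replication, was at 2732, 2637 and 2795 scaled reads in the Ebf1-KO libraries, 2784, 2697 and 2556 in the Pax5-KO libraries and 3307, 3125 and 3428 in the WT libraries. All knockout libraries lay below WT. Dnmt1 was lower in Ebf1-KO (log2 fold change -0.27, SE 0.07, adjusted p = 0.00508) and Pax5-KO (log2 fold change -0.29, SE 0.07, adjusted p = 0.00368), beside a median of -0.55 and -0.45 over the 14 cycling markers. With the authors' scaling Dnmt1 was at 0.05 and -0.04 and uncalled, and quantile normalization also lost the Ebf1-KO call.

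Tet1 had the largest change of all 46 regulators in RNA. Tet1, one of 3 enzymes that oxidise methylated cytosine and best known from embryonic stem cells, was at 1429, 1768 and 1606 scaled reads in the Ebf1-KO libraries, 342, 379 and 369 in the Pax5-KO libraries and 3.25, 4.28 and 8.49 in the WT libraries. The 3 groups were far apart, with Ebf1-KO highest and WT lowest. Tet1 was 267-fold higher in Ebf1-KO than in WT (log2 fold change 8.06, SE 0.23, adjusted p = 1.67e-11), 61-fold higher in Pax5-KO (log2 fold change 5.93, SE 0.23, adjusted p = 4.66e-10) and 4.38-fold higher in Ebf1-KO than in Pax5-KO (log2 fold change 2.13, SE 0.23, adjusted p = 6.98e-06). By log2 rise it ranked 36 of 12839 genes in Ebf1-KO over WT and 96 in Pax5-KO over WT. Tet2, the TET enzyme most often linked to blood cells, was at 755, 655 and 525 scaled reads in the Ebf1-KO libraries, 935, 831 and 711 in the Pax5-KO libraries and 1025, 885 and 848 in the WT libraries. Ebf1-KO lay below WT, and Pax5-KO overlapped both. Tet2 was lower in Ebf1-KO (log2 fold change -0.52, SE 0.14, adjusted p = 0.00557), lost with the authors' scaling (-0.20), and at -0.16 in Pax5-KO, not called. Ebf1-KO over Pax5-KO gave -0.36 (adjusted p = 0.051, and 0.000826 with the replicate block), called also without Ebf1-KO 1, or Pax5-KO 3 (adjusted p 0.0146 to 0.0213). Tet3 was at 1289.96, 1187 and 1107 scaled reads in the Ebf1-KO libraries, 1258, 1288 and 1067 in the Pax5-KO libraries and 1308, 1304 and 1197 in the WT libraries, with overlapping groups and no call (log2 fold change -0.09, SE 0.09, adjusted p = 0.421 in Ebf1-KO, and log2 fold change -0.08, SE 0.09, adjusted p = 0.489 in Pax5-KO).

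Per kb, Tet1 averaged 114 ± 12 in Ebf1-KO, 25.8 ± 1.35 in Pax5-KO and 0.38 ± 0.197 in WT (SD, n = 3 each), Tet2 70.4 ± 12.6 in Ebf1-KO, 90.1 ± 12.2 in Pax5-KO and 100.3 ± 10.2 in WT, and Tet3 109.7 ± 8.4 in Ebf1-KO, 111 ± 11 in Pax5-KO and 117 ± 5.76 in WT. Tet1 made up 38.8% in Ebf1-KO, 11.5% in Pax5-KO and 0.179% in WT of the family. The family sum was 294 ± 18.1 in Ebf1-KO, 226 ± 21.6 in Pax5-KO and 217 ± 14.6 in WT. Tet1, Mta3 and Dnmt3b rose in the same libraries in which markers of NK, T and myeloid cells rose: 6 of 6 tested NK and T cell markers were higher in Ebf1-KO and 5 of 6 in Pax5-KO, and 3 and 4 of 5 tested myeloid markers, with 1 lower in Ebf1-KO. The summed levels given above were highest in Ebf1-KO for both lists. Tet1 and Mta3 were also higher in Ebf1-KO than in Pax5-KO, while Dnmt3b was not called between them (log2 fold change 0.12, limma adjusted p = 0.278). Levels within the lists were uneven. Il2rb averaged 531 in Ebf1-KO, 36.6 in Pax5-KO and 0.435 in WT, Cd3g 12.4 in Ebf1-KO, 0.441 in Pax5-KO and 0 in WT, Tyrobp 765 in Ebf1-KO, 114 in Pax5-KO and 0.722 in WT and Mpo 158 in Ebf1-KO, 38.5 in Pax5-KO and 0.12 in WT, while Cd3e, Gzmb and Elane stayed under 1 scaled read on average in every group. The part of cells of other lineages in these results was not tested.

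No bound peak had Tet1 as its nearest gene. At the Tet2 locus, a PAX5-only site 141 kb before the start, chr3:133684802-133685050, had 0.78, 0.30 and 0 tags in the Ebf1-KO libraries, 1.41, 0.80 and 0.87 in the Pax5-KO libraries and 13.7, 4.27 and 9.58 in the WT libraries. It was less accessible in Ebf1-KO (log2 fold change -2.82, SE 0.39, adjusted p = 8.28e-10) and Pax5-KO (log2 fold change -2.22, SE 0.39, adjusted p = 8.33e-07). All knockout libraries lay below WT. The central 200 bases are shown as those of the PAX5-only member peak with the largest change, and hold none of the 3 letter strings searched.
Tet2 upstream site, chr3:133684827-133685026, plus strand: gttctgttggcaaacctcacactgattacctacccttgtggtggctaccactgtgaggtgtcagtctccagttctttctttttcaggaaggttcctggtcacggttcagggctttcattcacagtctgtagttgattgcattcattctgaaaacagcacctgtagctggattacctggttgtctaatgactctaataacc
An EBF1-only site with more tags, 38.8 kb before Tet2, chr3:133583013-133583283, had 27.3, 27.8 and 36.5 tags in the Ebf1-KO libraries, 22.6, 17.8 and 13.5 in the Pax5-KO libraries and 67.9, 36.2 and 66.5 in the WT libraries. It was lower in Pax5-KO (log2 fold change -1.59, SE 0.27, adjusted p = 4.63e-07) and in Ebf1-KO (log2 fold change -0.83, SE 0.27, adjusted p = 0.00609). The Ebf1-KO call was lost without WT 3 (adjusted p 0.0609), and the change was at 0.05 with TMM scaling. Ebf1-KO was above Pax5-KO there (log2 fold change 0.75, SE 0.27, adjusted p = 0.0339), lost without Ebf1-KO 1, 2 or 3, or Pax5-KO 2 or 3 (adjusted p 0.053 to 0.202). A PAX5-only site 69.8 kb before the start was lower in Pax5-KO (-0.90, adjusted p = 0.0474), lost with TMM scaling and without Ebf1-KO 3, Pax5-KO 2 or 3, or WT 1 or 2 (adjusted p 0.0521 to 0.268). In Ebf1-KO it was at -0.73, called without WT 3 (adjusted p 0.0239).

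**Figure D5:**
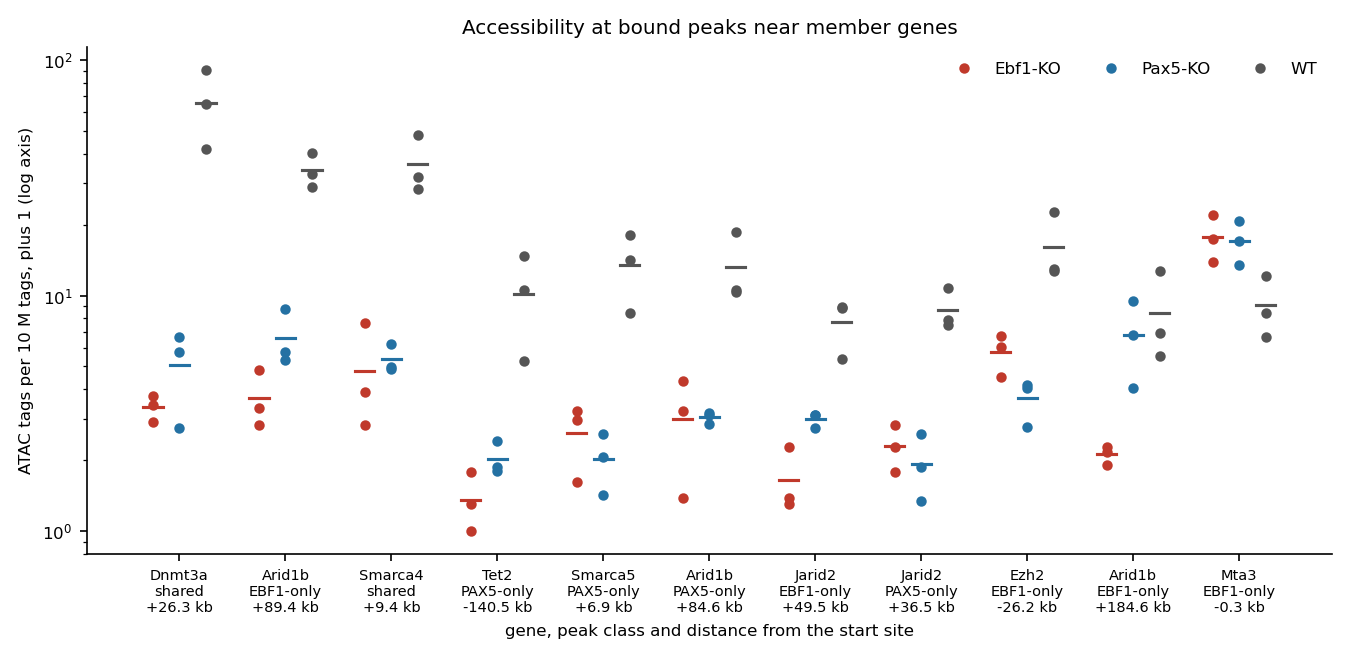
ATAC tags per 10 M tags plus 1 (log axis) in each of 9 libraries at the 10 called member peaks with the largest change over WT and, on the right, at the Mta3 promoter, in Ebf1-KO (red), Pax5-KO (blue) and WT (grey), with a bar at each mean. WT lies above both knockouts at 9 of the 10, above Ebf1-KO alone at the Arid1b site +184.6 kb from the start, and below both at Mta3.

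Comparing the 2 knockouts directly at member peaks, 2 of 51 were more accessible in Ebf1-KO than in Pax5-KO and 6 less, with 9.06% of all bound peaks called higher and 12.6% lower. The 2 higher ones were the intron 8 peak of Mta3 and the EBF1-only peak 38.8 kb before Tet2. The 6 lower ones were 4 sites of Arid1b, the farther site before Jarid2 and the Brd7 site 18.4 kb before the gene. In all, 8 were called, against 5 without Ebf1-KO 1, Ebf1-KO 2 or Pax5-KO 2, and the calls of higher accessibility fell to 1 without Ebf1-KO 1 and to 0 without Ebf1-KO 2, Ebf1-KO 3, Pax5-KO 2 or Pax5-KO 3.

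Of the members with called peaks, Smarca4, Smarca5, Arid1b, Ezh2 and Cbx7 had a site that lost accessibility and RNA that fell in both knockouts. With the authors' RNA scaling, the falls of Smarca5 in both knockouts and of Cbx7 in Ebf1-KO were uncalled. With TMM scaling of the peaks, the Ezh2 site in Ebf1-KO and the Cbx7 site in both knockouts were uncalled. Of all bound peaks, 51.1% were called lower in Ebf1-KO and 51.5% in Pax5-KO. Jarid2 had sites that lost accessibility and RNA that rose in both knockouts. Mta3 had a promoter site that gained accessibility and RNA that rose in both. Dnmt3a had the site with the largest loss in both, while its RNA rose in Ebf1-KO (0.67) and was slightly lower in Pax5-KO (-0.24, and 0.01 with the authors' scaling). In Pax5-KO the peaks of Smarca2 and Smarcc1 were lower (-0.66 and -0.60), falls that TMM scaling turned round, and their RNA was higher (0.74 and 0.19). Eed and Arid2, whose RNA fell in both knockouts, had a peak that was not called, save higher at Arid2 with TMM scaling, and Mbd2, Smarcb1 and Dnmt1, which fell likewise, were the nearest gene of no bound peak. Nor were Dnmt3b, Tet1 and Bmi1, which rose in both. Of the RNA falls of Eed, Arid2, Mbd2, Smarcb1 and Dnmt1, only those of Mbd2 were also called with the authors' scaling.

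In the authors' deposited tables of knockout over WT, 4 members are listed as higher (Tet1, Mta3, Dnmt3b and Smarcd3) and 4 as lower (Ezh2, Mbd2, Smarca2 and Smarca4) in Ebf1-KO, and 3 higher (Tet1, Mta3 and Dnmt3b) and 2 lower (Ezh2 and Smarca4) in Pax5-KO. All were called in the same direction here. The smallest change among these entries is that of Mbd2, at -1.08 in Ebf1-KO, while calls here had no threshold on the fold change. The counts of members are therefore not set side by side. The authors' deposited table gives a log2 fold change of 8.05 and 8.04 for the 2 Tet1 transcripts in Ebf1-KO over WT, and of 5.92 and 5.91 in Pax5-KO over WT.

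A wider list of 79 other subunits and cofactors of these complexes was read alongside, of which 73 were tested. In Ebf1-KO 20 were higher and 25 lower than in WT, or 27.4% and 34.2%, beside 30.3% and 27.5% of all genes. In Pax5-KO 10 were higher and 25 lower, or 13.7% and 34.2%, beside 26.5% and 23.2% of all genes. In Ebf1-KO over Pax5-KO 20 were higher and 12 lower, or 27.4% and 16.4%, beside 20.3% and 19.7% of all genes, with list medians of -0.08, -0.12 and 0.03. The 4 largest rises in Ebf1-KO included Bcl11b, a T cell factor that also joins BAF, at 168, 158 and 151 scaled reads in the Ebf1-KO libraries, 0, 0 and 0.567 in the Pax5-KO libraries and 0, 0 and 0.333 in the WT libraries (adjusted p = 7.5e-11 for Ebf1-KO over WT and 2.48e-10 over Pax5-KO). It was close to 0 in all Pax5-KO and WT libraries. Its B-lineage paralog Bcl11a, by contrast, was at 347, 431 and 402 scaled reads in the Ebf1-KO libraries, 942, 842 and 820.3 in the Pax5-KO libraries and 2797, 3523 and 3504 in the WT libraries, and fell in both (-3.05 and -1.91). Zbtb38, a reader of methylated DNA, rose in Ebf1-KO (log2 fold change 3.6, SE 0.14, adjusted p = 2.44e-10) and Pax5-KO (log2 fold change 2.94, SE 0.14, adjusted p = 2.8e-09). E2f6, a repressor found in a PRC1 variant, rose as well (1.91 and 1.22). The fourth rise in Ebf1-KO was that of E130012A19Rik (0.90), and in Pax5-KO the third and the fourth were those of the PRC1 subunit Pcgf2 (1.01) and the metabolic enzyme Idh2 (0.72).

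Among the falls, Cecr2, a partner of ISWI ATPases, was at 211, 116 and 79.8 scaled reads in the Ebf1-KO libraries, 5925, 5046 and 4095 in the Pax5-KO libraries and 6141, 4933 and 4452 in the WT libraries, 40.7-fold lower in Ebf1-KO than in WT (log2 fold change -5.35, SE 0.27, adjusted p = 3.43e-09) and at -0.05 in Pax5-KO, not called. Uhrf2, a reader of hemimethylated and oxidised DNA, was at 55.9, 32.5 and 30.5 scaled reads in the Ebf1-KO libraries, 308, 283 and 263 in the Pax5-KO libraries and 1242, 1042 and 984 in the WT libraries. It fell in Ebf1-KO (-4.79) and Pax5-KO (-1.93) and was lower in Ebf1-KO than in Pax5-KO (-2.87). The PRC1-associated Scmh1 (-3.49, -1.7 and -1.79 in the same 3 comparisons) and the NuRD partner Zfpm1 (-3.41, -1.41 and -2.0) followed the same order. Phf19, an accessory subunit of PRC2, was at 25, 25.4 and 22.8 scaled reads in the Ebf1-KO libraries, 4.52, 6.8 and 4.73 in the Pax5-KO libraries and 129, 150.5 and 152 in the WT libraries, and fell more in Pax5-KO (log2 fold change -4.52, SE 0.17, adjusted p = 4.9e-10) than in Ebf1-KO (log2 fold change -2.51, SE 0.17, adjusted p = 6.71e-08), with Ebf1-KO above Pax5-KO (log2 fold change 2.02, SE 0.17, adjusted p = 1.01e-06). The BAF subunit Bcl7a fell in Ebf1-KO (-2.19) and Pax5-KO (-1.83). Chd5 (0.97) and Gadd45a (0.85) completed the 4 largest rises of Ebf1-KO over Pax5-KO, the second lost without Ebf1-KO 1, or Pax5-KO 2 or 3 (adjusted p 0.0781 to 0.144). By complex, the list held 3 higher and 5 lower of 14 BAF, 1 and 3 of 9 ISWI, 3 and 1 of 8 NuRD, 2 and 3 of 5 PRC2 and 6 and 6 of 22 PRC1 genes in Ebf1-KO over WT, to be read against the shares of all genes just given. It also held 2 and 0 of 2 demethylases of histone H3, 1 and 3 of 6 DNA methylation and 2 and 4 of 7 DNA demethylation genes. Of these, Kdm6a, an X-linked H3 demethylase, was at 1610.4, 1444 and 1363 scaled reads in the Ebf1-KO libraries, 926, 839 and 766 in the Pax5-KO libraries and 1011, 936 and 901 in the WT libraries. It was chosen after its values were seen, because sex and the Ebf1 genotype cannot be told apart.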

How the data were processed

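RNA levels were deposited as a signal, HOMER reads over exons per gene scaled by the authors to 10 M mapped reads per library, per the file headers (genome build mm10). The ATAC signal of peaks that had been called on EBF1 and PAX5 ChIP data was scaled by the authors to 10 M tags per library, per the file headers, beside a ChIP peak score, a distance to the nearest start site and the gene length. The authors' deposited tables of comparisons give a log2 fold change and an adjusted p-value per transcript, and HOMER wrote them per the file headers. Bowtie2, TopHat, HOMER, edgeR and DESeq2 are named in the submitters' processing notes, and strand and the handling of multiply mapped reads are not stated in the labels or headers used here. The 36 further per-library columns were not used.

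Values were divided by what 1 read was worth, and 100% of those up to 1000 reads came out whole (within 0.1 reads). RNA values were rescaled by TMM factors, since the median gene moved with genotype under the authors' scaling, which is an alternative below. The ATAC values kept the authors' scaling. Log2(value + 1) was fitted with limma (3.58.1, R 4.3.3, trend) in 1 model of 3 genotypes, for 12839 genes that passed edgeR's filterByExpr and 14365 peaks with at least 10 tags over the 9 libraries, with Benjamini-Hochberg adjustment over all of them and a threshold of 0.05. The steps were tested on simulated data. On the recovered reads, edgeR's quasi-likelihood test (4.0.16) called 7379 genes for Ebf1-KO over WT, 6401 for Pax5-KO over WT and 5184 for Ebf1-KO over Pax5-KO, beside 7414, 6381 and 5139 with limma. DESeq2 (1.42.0) called 7384, 6447 and 5337.

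Alternatives were other scalings, pseudocounts, filters and tools, fits of only the 2 genotypes compared, subsets of peaks, a replicate block and leaving out libraries. Deviations of same-numbered RNA libraries correlated at 0.123 to 0.425 over 9 pairs, against -0.35 to 0.025 for different numbers. No label states a pairing, and what same-numbered libraries share was not tested. The libraries numbered 3 were also the deepest of each genotype, with 58.0 (Ebf1-KO), 89.1 (Pax5-KO) and 63.1 (WT) M mapped reads. The main fit leaves the numbers out, and the replicate block takes them in. Groups came from the titles.

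Members and lists were chosen with earlier results of these data known. Values are given in full for 24 members, those called at an absolute log2 fold change of at least 0.8 or catalytic, for the 4 largest called rises and falls per comparison among other subunits, and for the 10 called peaks with the largest change. The Mta3 promoter peak, Kdm6a, the single marker genes and the stroma sum without Pdgfrb were added after their values were seen. Sequences are from the reference genome GRCm38, the build of the files (pysam 0.24.0). Tables and plots were made with Python 3.11.15, pandas 2.3.3 and matplotlib 3.10.9.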

Additional observations from a re-analysis of the deposited data

How the results depend on the processing

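Under other pseudocounts, filters and tools and with DESeq2 or quantile scaling, the counts of called members stayed within 1.5 times those given, and single members and other subunits kept direction and call in 3633 of 3834 recomputed RNA results (146 lost the call, 47 gained one, 8 turned round), as did peaks in 1710 of 1824 ATAC results (92, 17 and 5). The 13 that turned round did so under another scaling, which moved the median of all genes or all peaks upward in knockout over WT. Which scaling is closer to the levels per cell was not tested. With the authors' RNA scaling, 17 members were higher and 6 lower in Ebf1-KO, 5 lower in Pax5-KO and 6 higher in Ebf1-KO over Pax5-KO. Log2 fold changes over WT then stood in Ebf1-KO at 0.069 for Hdac2, 0.087 for Rbbp4, 0.13 for Rbbp7, 0.064 for Rnf2 and 0.047 for Dnmt1, and in Pax5-KO at 0.084 for Smarcc2, 0.047 for Brd7 and 0.015 for Dnmt3a. With TMM over all bound peaks, 9 member peaks were higher and 13 lower in Ebf1-KO, 17 were called in Pax5-KO (6 higher, 11 lower) and 4 were higher in Ebf1-KO over Pax5-KO. The Smarca2 peak then stood at 0.78 in Ebf1-KO and 0.24 in Pax5-KO, the Smarcc1 peak at 0.58 and 0.29, and the Tet2 peak starting at 133583013 at 0.052 in Ebf1-KO. Without the 3 RNA libraries numbered 2, which leaves fewer samples, 11 members were lower in Ebf1-KO than in WT, and 7 were called, 4 of them higher, in Ebf1-KO over Pax5-KO. With the replicate block 5 members were lower in Ebf1-KO than in Pax5-KO, and no other RNA count moved by over 1.5 times. Deviations of same-numbered ATAC libraries correlated at -0.052 to 0.11, and what those libraries share was not tested. A block there gave 30, 26 and 8 called peaks, beside 29, 27 and 8. Peaks with a score at or above their class median, which leaves fewer peaks, gave 18 calls (16 lower) in Ebf1-KO, 15 (13 lower) in Pax5-KO and 5 (3 lower) between the knockouts. Peaks within 50 kb gave 18 (16 lower), 16 (14 lower) and 4 (1 higher, 3 lower), and those within 10 kb 6 in each knockout over WT (1 higher, 5 lower). Of 14 peaks within 10 kb, limma and edgeR called 0 between the knockouts, with 2 at an unadjusted p under 0.05 by each tool. Only 1 peak was higher in Pax5-KO with a pseudocount of 0.25 or with only the 2 genotypes fitted, and 1 in Ebf1-KO over Pax5-KO with edgeR. Leaving out each library in turn gave 24 to 29 called members in Ebf1-KO (10 to 12 higher, 14 to 19 lower), 17 to 21 in Pax5-KO (6 to 8 and 11 to 14) and 10 to 14 between the knockouts (7 to 11 and 3 to 5). For peaks it gave 26 to 32 in Ebf1-KO (2 to 3 and 24 to 30), 23 to 28 in Pax5-KO (1 to 2 and 21 to 27) and 5 to 9 between the knockouts (0 to 3 and 4 to 7). Limma called 0 peaks higher in Ebf1-KO than in Pax5-KO without Ebf1-KO 2, Ebf1-KO 3, Pax5-KO 2 or Pax5-KO 3, with 2 to 3 at an unadjusted p under 0.05, and with all libraries it called 2 and edgeR 1. Depth limits single peaks of few tags.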
